A study of Mus musculus with 8 samples.

Results

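The spliceosome core genes are the 43 genes of the deposited table whose symbols begin with Snrp, Sf3a, Sf3b or Prpf or are Lsm1 to Lsm8, out of 55487 genes in all. The symbol pattern matched 45 rows, and 2 pseudogene rows with -ps in their symbols, which held at most 1 count in any library, were left out. The genes were measured by RNA sequencing in 8 libraries of mouse 2-cell embryos, each from a pool of 5 embryos. One-cell embryos were microinjected 20 h after the hormone hCG was given, and RNA was taken 10 h after that. The knockdown-labelled group (4 libraries, genotype label polq knockdown) received CasRX, an RNA-guided nuclease that cuts RNA, together with a gRNA against Polq, the gene of DNA polymerase theta. The control group (4 libraries, genotype label WT) received CasRX. The labels name no control guide and do not say whether one was injected. The groups may therefore differ in the presence of a guide as well as in its target. The sources used here give neither the mouse strain nor the position of the guide on Polq.

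The spliceosome removes introns from pre-mRNA. It is built from small nuclear ribonucleoproteins (snRNPs), each an RNA (U1, U2, U4, U5 or U6) with proteins: the U1, U2, U4 and U5 RNAs carry a ring of Sm proteins, and U6 carries a ring of LSm proteins. U1 recognises the 5' splice site and U2 the branch site, the U4/U6.U5 tri-snRNP then joins, and the Prp19 complex helps to turn the assembly into an active enzyme. In the mouse 2-cell embryo the stored maternal RNA is being degraded while transcription from the embryo's own genome starts, so that it holds RNA from both sources.

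The libraries held 4726159 to 33650050 counts in the knockdown-labelled group and 33311665 to 43748621 counts in the controls, with replicates 1, 2 and 3 of the knockdown-labelled group the 3 shallowest. Polq itself stood at 16.9, 38.9, 29.2 and 41.1 CPM (read counts scaled to a common library size with edgeR's TMM method) in knockdown-labelled replicates 1 to 4, against 34.6, 49.7, 40.1 and 32.7 CPM in controls 1 to 4. The groups overlapped (2-sided exact permutation test, p = 0.343, smallest possible p = 0.0286), so that the libraries are named here by their label. All 14 markers of oocytes and 2-cell embryos had counts in both groups, with Zp1 at 0 in knockdown-labelled replicate 1. Their summed level was 4867 to 7428 CPM in the knockdown-labelled libraries and 4508 to 7335 CPM in the controls. Oosp1, with a mean of 4135 CPM over the 8 libraries, made up most of this sum. The 10 cumulus and granulosa cell markers summed to 0.793 to 10.7 CPM in the knockdown-labelled libraries and 0 to 24.6 CPM in the controls, with Ptx3, Has2, Fshr, Foxl2 and Inha at 0 in all 8. The highest value among the others was 16.2 CPM, for Tnfaip6 in control replicate 2. The 7 blood cell markers summed to 8.67 to 12.8 CPM in the knockdown-labelled libraries and 4.003 to 16.2 CPM in the controls, with Hbb-bs, Hbb-bt, Alas2 and Lyz2 at 0 in all 8. Hba-a1 had counts in all 8 and reached 16.2 CPM in control replicate 4. The 6 sperm markers summed to 0 to 11.7 CPM in the knockdown-labelled libraries and 0.0917 to 7.18 CPM in the controls, with Prm1, Tnp1, Tnp2 and Odf1 at 0 in all 8. Prm2 reached 7.34 CPM in knockdown-labelled replicate 1 and 7.06 CPM in control replicate 2.

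The RNAs of the core genes took up a similar part of every library. Their share of all counts was 0.992%, 0.872%, 1.12% and 1.05% in knockdown-labelled replicates 1 to 4, against 1.06%, 0.907%, 0.881% and 1.09% in controls 1 to 4. The groups overlapped. In these pools of embryos, fewer cells and less RNA per cell cannot be told apart. Of the 43 genes, 41 had a count in each knockdown-labelled library, and 42, 42, 42 and 43 in controls 1 to 4. The median level of the 42 genes that passed the filter on low counts was 71.2 CPM, against 8.34 CPM for all 13146 genes tested. The gene that did not pass was Prpf40b, which is described with the U1 proteins.

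As a feature that the choice by symbol did not use, the promoters of the core genes were examined. Sequences from 250 bases before to 50 bases after the annotated start were available for 34 of the 43 genes (RefSeq, GRCm38.p6), 44 sequences in all. The letters CCGGAAG, which make up a common form of the binding motif of ETS-family transcription factors, occurred on either strand in 15 of the 34 genes (44.1%), against 20.1% of the 8975 tested genes with a sequence and 9.93% of all 27025 genes. Counted by sequence, they occurred in 36.4% of the core gene promoters and in 8.86% of all 32851 promoters. Of the 9 genes of U2 snRNP proteins with a sequence, 7 held the letters, namely Sf3a1, Sf3a2, Sf3a3, Sf3b2, Sf3b3, Sf3b6 and Snrpb2. The others were Snrpe, Snrpg, Snrpc, Lsm5, Prpf3, Prpf6, Prpf4b and Prpf19. The other motifs searched on both strands were CCAAT, found in 44.1% of the core genes and 44.8% of the tested genes, TATAAA, in 8.82% and 9.76%, and the NRF1 motif (GCGCA, any base, then GCGC), in 20.6% and 11.8%. A match describes these letters in this window, and no test of the shares was made. The sets compared are not matched for level, and by sequence no share of the tested genes was computed.

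The promoters of Snrpe, Snrpg and Sf3b6 are shown because these are the most abundant core genes with a match, and that of Sf3a2 because it was the tested gene listed at 0 throughout one group. Capitals mark CCGGAAG or its reverse complement CTTCCGG, which overlap in Snrpe. In GRCm38.p6 they lie at chr1:133610231-133610530 on the minus strand (Snrpe), chr6:86371290-86371589 on the plus strand (Snrpg), chr12:4817358-4817657 on the plus strand (Sf3b6) and chr10:80798485-80798784 on the plus strand (Sf3a2).
Snrpe: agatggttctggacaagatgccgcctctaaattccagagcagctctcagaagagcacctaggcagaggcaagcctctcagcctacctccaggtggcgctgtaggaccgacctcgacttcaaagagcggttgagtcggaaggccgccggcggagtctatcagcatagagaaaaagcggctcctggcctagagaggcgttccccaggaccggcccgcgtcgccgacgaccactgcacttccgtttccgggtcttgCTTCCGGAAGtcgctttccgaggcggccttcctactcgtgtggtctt
Snrpg: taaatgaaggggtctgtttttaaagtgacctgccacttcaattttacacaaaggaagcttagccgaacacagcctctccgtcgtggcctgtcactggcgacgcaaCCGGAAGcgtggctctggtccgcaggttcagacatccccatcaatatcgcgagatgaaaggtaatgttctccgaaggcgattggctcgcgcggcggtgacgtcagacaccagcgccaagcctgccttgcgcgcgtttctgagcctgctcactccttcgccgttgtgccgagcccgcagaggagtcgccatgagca
Sf3b6: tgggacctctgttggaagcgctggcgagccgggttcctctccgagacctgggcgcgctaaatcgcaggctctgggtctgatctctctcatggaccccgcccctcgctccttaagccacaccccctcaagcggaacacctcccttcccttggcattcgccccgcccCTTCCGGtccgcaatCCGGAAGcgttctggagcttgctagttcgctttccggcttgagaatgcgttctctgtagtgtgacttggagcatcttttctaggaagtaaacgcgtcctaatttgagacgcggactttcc
Sf3a2: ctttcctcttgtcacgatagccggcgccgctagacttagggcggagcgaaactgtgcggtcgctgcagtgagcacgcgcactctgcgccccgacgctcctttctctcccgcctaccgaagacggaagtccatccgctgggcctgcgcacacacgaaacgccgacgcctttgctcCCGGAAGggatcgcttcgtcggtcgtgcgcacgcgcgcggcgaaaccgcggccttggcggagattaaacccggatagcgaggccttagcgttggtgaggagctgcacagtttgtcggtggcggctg

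No spliceosome core gene passed the test between the groups. The edgeR quasi-likelihood test called 0 of the 42 at an adjusted p under 0.05, where it called 0% of all 13146 genes, and the adjusted p of every core gene, and of every other gene named below, rounded to 1.0. At an unadjusted p under 0.05 it gave 2 of the 42, Sf3a2 and Prpf18, which is 4.76% beside 2.81% of all genes. Without knockdown-labelled replicate 2 or control replicate 3 that number was 1, and without knockdown-labelled replicate 4 or control replicate 2 it was 3. DESeq2 called 0 of the 42 at an adjusted p under 0.05, beside 0.154% of all genes, and gave 2 at an unadjusted p under 0.05, beside 4.29%. Limma-voom called 0, as it did over all genes (0%), and gave 3 at an unadjusted p under 0.05, beside 6.56%. With DESeq2 these were again Sf3a2 and Prpf18, whereas with limma-voom they were Sf3a2, Snrpb and Lsm8, and Prpf18 was not among them. The 4 knockdown-labelled libraries all lay on one side of the 4 controls in 2 of the 42 genes, Sf3a2 below and Prpf19 above, beside 2.98% of all genes. Sf3a2 passed the filter on low counts through the controls alone and could only come out lower, so that its place in these counts is no support for a difference.

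The directions were mixed and the sizes mostly small. Of the 42 genes, 24 had positive and 18 negative log2 fold changes (knockdown-labelled minus control), a share of 57.1% positive beside 46.6% of all genes, and 18 to 28 genes were positive with 1 library left out. The median log2 fold change was 0.04, beside −0.05 for all genes, and it turned to −0.035 without control replicate 3 and to −0.0017 without knockdown-labelled replicate 4. For 21 of the 42 genes the 95% interval of the fold change lay within 2-fold either way, and for 40 it included no difference. The plot of levels by library shows the genes by role, with points closer together at high levels.

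**Figure D1:**
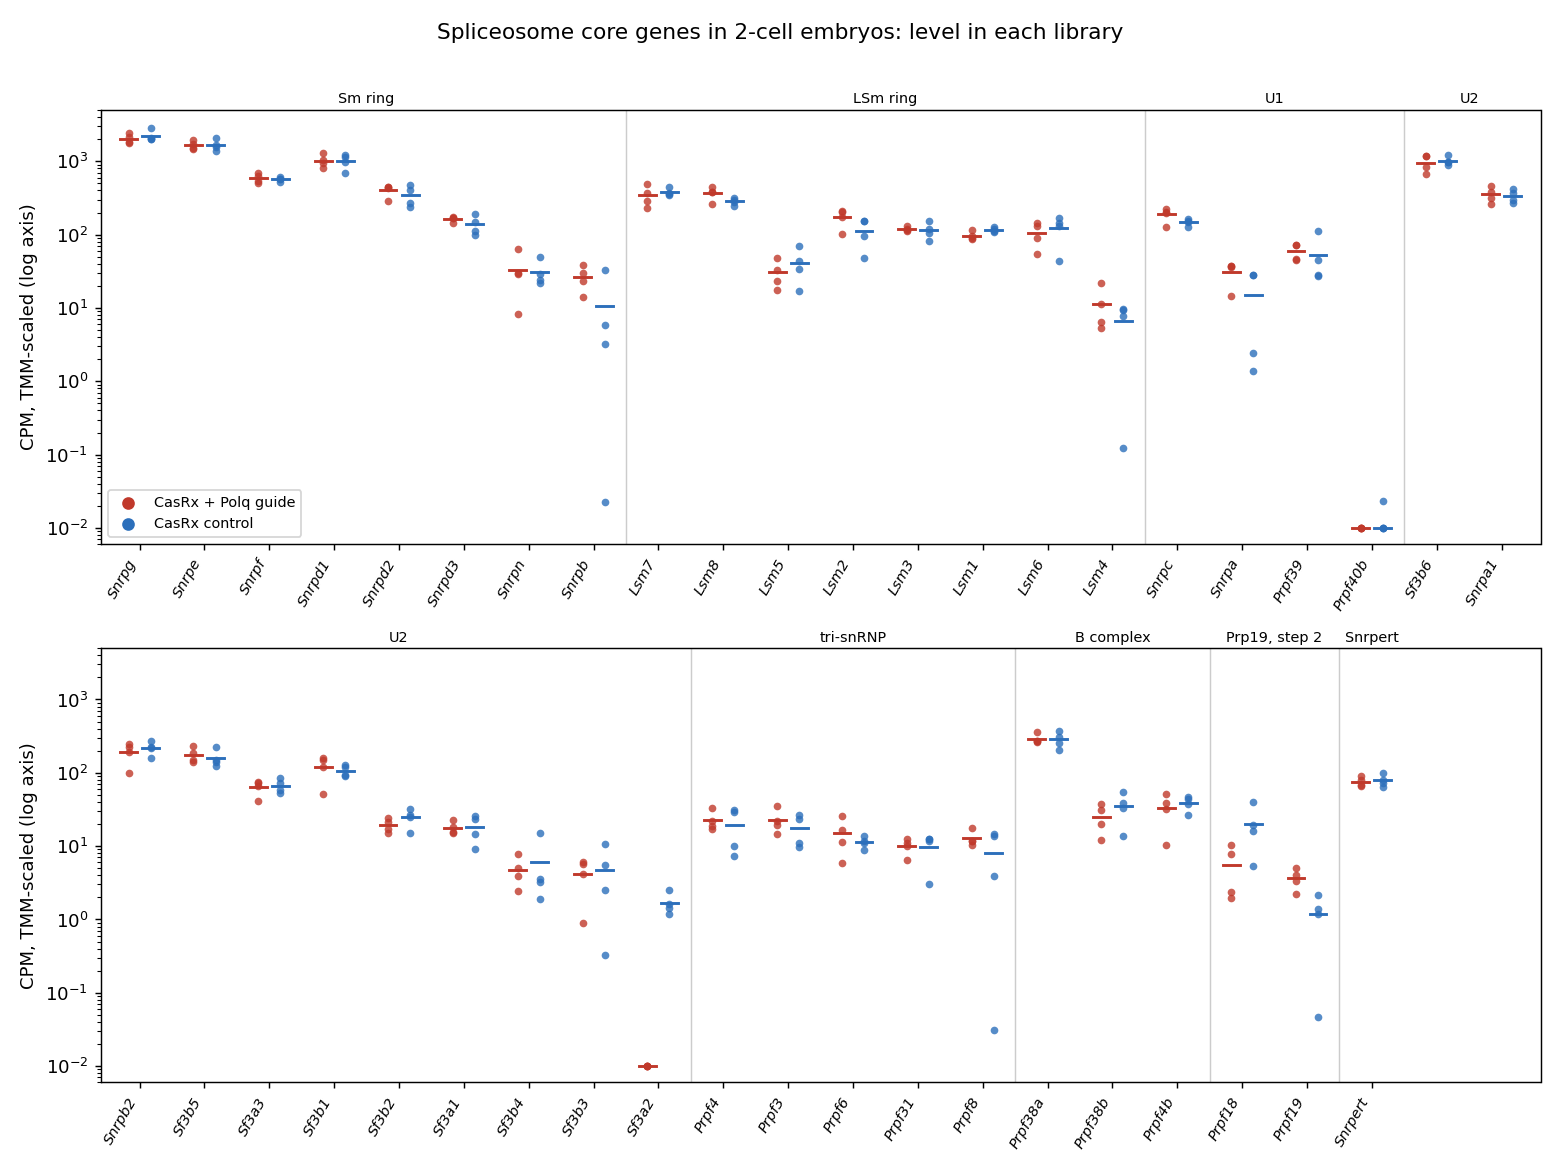
Level of the spliceosome core genes in each library, in CPM on a log axis, ordered by role and by level per kilobase, with knockdown-labelled libraries (CasRx + Polq guide, red) left of controls (blue). Points are libraries, lines are means of 4, and a value of 0 is drawn at 0.01. Snrpg and Snrpe stand at 1362 CPM or more in all 8 libraries, while Snrpb and Prpf8 have controls at 0.0229 and 0.0315 CPM.

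Of the role groups, the Sm ring genes had the highest summed level, though Snrpb, Snrpn and Snrpd3 lay below several genes of other roles. Sm proteins B, D1, D2, D3, E, F and G close around the snRNA into a ring, and Snrpn encodes SmN, which can take the place of SmB and is known from brain. Their summed level was 5920 ± 420.1 CPM in the knockdown-labelled libraries and 6008 ± 649.9 CPM in the controls (SD, n = 4 each), and 6 genes had positive and 2 negative log2 fold changes with a median of 0.06. Snrpg, for SmG, was at 2431, 1809.8, 1753 and 2137 CPM in knockdown-labelled replicates 1 to 4, against 1991, 2845, 2058 and 2024 CPM in controls 1 to 4. Control replicate 2 was the highest of all 8 and the groups overlapped (log2 fold change −0.13, SE 0.17). Snrpd3, for SmD3, was at 145, 169.9, 175 and 167 CPM in knockdown-labelled replicates 1 to 4, against 99.8, 112, 149 and 191 CPM in controls 1 to 4. The knockdown-labelled libraries lay inside the range of the controls (0.25, SE 0.23).

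The other abundant ring genes had narrow intervals. Snrpe, for SmE, averaged 1653 ± 209 CPM in the knockdown-labelled libraries and 1676 ± 305 CPM in the controls, and its fitted fold of 0.986 had a 95% interval from 0.77 to 1.26. Snrpd1, for SmD1, averaged 1020.5 ± 211 CPM in the knockdown-labelled libraries and 1007 ± 228 CPM in the controls (fold 1.01, interval 0.735 to 1.40). Snrpf, for SmF, averaged 588 ± 82.0 CPM in the knockdown-labelled libraries and 570.3 ± 41.3 CPM in the controls (fold 1.03, interval 0.821 to 1.29). For these genes a change of 1.5-fold in either direction lay outside the interval. Snrpd2, for SmD2, averaged 403 ± 74.5 CPM in the knockdown-labelled libraries and 347 ± 110.3 CPM in the controls, with a wider interval from 0.794 to 1.70.

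SmB and its paralogue SmN were at the low end of the ring. Snrpb was at 14.1, 39.0, 23.5 and 29.9 CPM in knockdown-labelled replicates 1 to 4, against 33.1, 3.18, 0.0229 and 5.80 CPM in controls 1 to 4. Control replicate 3 had a single count of Snrpb, while the other 7 libraries had 71 to 1084 counts. The knockdown-labelled libraries overlapped with control replicate 1 and lay above the other 3 controls, and the fitted log2 fold change of 1.34 had an interval from −1.38 to 4.06. It was 0.92 without control replicate 3, 3.15 without control replicate 1 and 4.04 with limma-voom. Snrpn was at 8.33, 29.6, 29.1 and 64.1 CPM in knockdown-labelled replicates 1 to 4, against 28.8, 21.9, 23.9 and 49.7 CPM in controls 1 to 4. It was lowest and highest in knockdown-labelled replicates 1 and 4 (log2 fold change 0.08, SE 0.54), and its direction turned with thinned libraries. The Snrpn gene, an imprinted gene read from the paternal copy, shares exons on the same strand with Snurf, whose own level was 0.301 ± 0.387 CPM in the knockdown-labelled libraries and 1.74 ± 1.27 CPM in the controls.

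Snrpert, a processed pseudogene on chromosome 2 from 131322088 to 131322366 (GRCm38, minus strand), is a near-identical copy of Snrpe without introns. It averaged 75.4 ± 11.4 CPM in the knockdown-labelled libraries and 78.9 ± 15.8 CPM in the controls. The ratio of Snrpe to Snrpert counts was 22.7, 22.3, 21.5 and 21.4 in knockdown-labelled replicates 1 to 4, against 20.8, 21.6, 21.5 and 21.3 in controls 1 to 4. The ratio was thus almost the same in all 8 libraries. RSEM divides reads that match several genes, and how many of the Snrpert counts come from Snrpe RNA was not tested. Pseudogene copies with at least 90% identity over 150 or more bases to Snrpg took 5.41% of the counts of Snrpg and copies together, those of Snrpa 4.61%, those of Snrpe, Snrpert among them, 4.48%, and those of Lsm5 4.06%. For the other core genes the share was at most 1.72%.

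**Figure D2:**
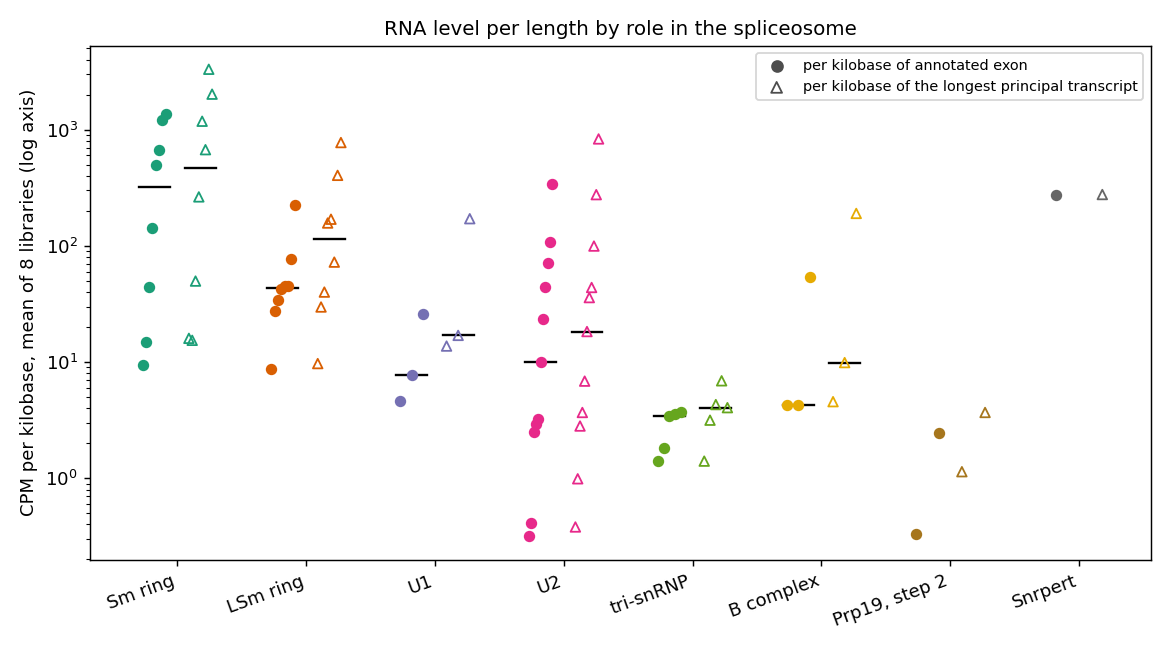
Mean level over the 8 libraries per kilobase, on a log axis, for the core genes by role, per kilobase of annotated exon (filled circles) and of the longest principal transcript (open triangles), with the median of groups of 3 or more as a line; Prpf40b, with 1 count in all, is left out. The Sm ring holds the highest values and the 5 tri-snRNP core genes lie between 1.40 and 6.90 CPM per kilobase on both scales.

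Levels per length set the core genes of the small ring proteins apart from the 5 core genes of the tri-snRNP. Genes outside the symbol rule are not covered. Those listed as other snRNP proteins averaged from 1.04 CPM (Eftud2) to 1848 CPM (Snu13) over the 8 libraries. Over the 8 libraries the median level of the Sm ring genes was 319 CPM per kilobase of annotated exon, that of the LSm ring genes 43.8, that of the U2 proteins 9.97 and that of the tri-snRNP proteins 3.41. With the longest principal transcript as the length, a choice made after seeing the data, the medians were 468, 115, 18.3 and 4.05 CPM per kilobase. The order of these groups was the same on both scales. Snrpg was highest per kilobase of exon (1357 CPM per kilobase) and Snrpe highest per kilobase of transcript (3308 CPM per kilobase). The tri-snRNP core genes, at 1.40 to 3.73 CPM per kilobase of exon, all lay below the lowest Sm ring gene (Snrpb, 9.40) and the lowest LSm ring gene (Lsm4, 8.65). The same held per kilobase of transcript. The U2 genes, from 0.317 to 344 CPM per kilobase of exon, overlapped with all 3 of these groups. These are levels of RNA per length and not of protein.

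The smallest p among the LSm ring genes belonged to Lsm8, and none passed the test, with a median log2 fold change of −0.05 (4 positive, 4 negative). LSm2 to LSm8 form the nuclear ring on U6, and LSm1 replaces LSm8 in the cytoplasmic ring that binds shortened mRNA tails and promotes decapping. Their summed level was 1245 ± 206 CPM in the knockdown-labelled libraries and 1179 ± 104 CPM in the controls. Lsm8 was at 264, 377, 451 and 379 CPM in knockdown-labelled replicates 1 to 4, against 295, 249, 318 and 279 CPM in controls 1 to 4. Knockdown-labelled replicates 2, 3 and 4 were above all controls and replicate 1 was among them (log2 fold change 0.37, SE 0.19). Lsm1 was at 96.4, 114, 86.3 and 89.4 CPM in knockdown-labelled replicates 1 to 4, against 107, 125, 113 and 121 CPM in controls 1 to 4. Replicates 1, 3 and 4 of the knockdown-labelled group were below all controls and replicate 2 was among them (−0.27, SE 0.18). When libraries were thinned to the smallest total, the log2 fold change of Lsm1 was −0.0033 (SE 0.24).

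The ratio of the subunits that distinguish both rings does not depend on the scaling of the libraries. Lsm8 counts over Lsm1 counts were 2.74, 3.30, 5.22 and 4.23 in knockdown-labelled replicates 1 to 4, against 2.74, 1.99, 2.82 and 2.31 in controls 1 to 4. The means were 3.87 ± 1.09 in the knockdown-labelled libraries and 2.47 ± 0.389 in the controls, and knockdown-labelled replicate 1 lay within the controls. The ratio was chosen after the values of both genes were seen, and the difference was not tested.

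**Figure D3:**
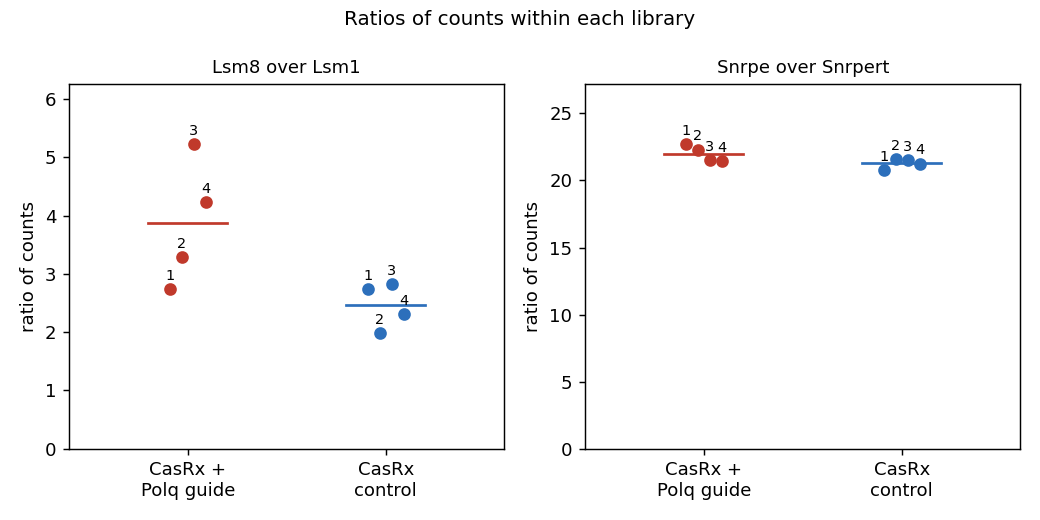
Ratio of counts within each library for Lsm8 over Lsm1 (left) and Snrpe over Snrpert (right), with knockdown-labelled libraries left of controls, numbers marking replicates and lines the means. The Lsm8 to Lsm1 ratio runs from 1.99 to 5.22, while the Snrpe to Snrpert ratio stays between 20.8 and 22.7 in all 8 libraries.

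Lsm7 had the highest level per kilobase of the LSm genes on both length scales. It was at 366, 230.5, 285 and 491 CPM in knockdown-labelled replicates 1 to 4, against 371, 362, 346 and 447 CPM in controls 1 to 4. The knockdown-labelled libraries held both the lowest and the highest value (log2 fold change −0.15, SE 0.23). Lsm3, another subunit shared by both rings, averaged 119 ± 9.35 CPM in the knockdown-labelled libraries and 115 ± 29.2 CPM in the controls. Lsm2 averaged 172 ± 49.2 CPM in the knockdown-labelled libraries and 113 ± 51.9 CPM in the controls, and Lsm6 averaged 105 ± 40.4 CPM in the knockdown-labelled libraries and 121 ± 54.1 CPM in the controls. Lsm5 was at 30.4 ± 13.03 CPM in the knockdown-labelled libraries and 41.1 ± 22.3 CPM in the controls, and Lsm4 at 11.3 ± 7.63 CPM in the knockdown-labelled libraries and 6.68 ± 4.46 CPM in the controls. Each of these differences was smaller than the sum of the SDs of both groups.

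None of the tested genes of U1 snRNP proteins passed the test. Snrpc, for U1-C, which steadies the pairing of U1 with the 5' splice site, had the smallest p and the highest level per length of the group. It was at 195, 205, 225 and 129 CPM in knockdown-labelled replicates 1 to 4, against 125, 155, 165 and 149.9 CPM in controls 1 to 4. Replicates 1, 2 and 3 of the knockdown-labelled group lay above all controls and replicate 4 among them (log2 fold change 0.34, SE 0.21). Snrpa, for the U1-A protein, was at 37.5, 35.6, 14.6 and 37.7 CPM in knockdown-labelled replicates 1 to 4, against 2.45, 1.39, 28.1 and 27.9 CPM in controls 1 to 4. Controls 1 and 2 stood far below the other 6 libraries, and the interval of its log2 fold change ran from −0.89 to 3.02. Prpf39, known from yeast as a U1 component, averaged 59.1 ± 15.5 CPM in the knockdown-labelled libraries and 52.6 ± 39.5 CPM in the controls. The log2 fold changes of Snrpc, Snrpa and Prpf39 were all positive (0.34, 1.07 and 0.17). Prpf40b had 0 counts in all 4 knockdown-labelled libraries and 1 count in the controls together, which allows no comparison.

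Among the U2 snRNP genes, 3 had positive and 8 negative log2 fold changes, with a median of −0.07. Sf3a2, a subunit of SF3a, which joins U2 before it binds the branch site, had 0 counts in all 4 knockdown-labelled libraries. It was listed at 1.62, 2.49, 1.19 and 1.44 CPM in controls 1 to 4, from expected counts of 53.11, 79.45, 51.92 and 61.91. At the mean control level of 1.69 CPM, knockdown-labelled replicates 1 to 4 would hold 8.50, 13.9, 14.6 and 53.8 counts. Against 3 counts over the knockdown-labelled group, which is 0.0557 CPM, the listed level was at least 30.2-fold lower (edgeR unadjusted p = 0.00175), and at least 12.3-fold lower with the same floor over replicates 1, 2 and 3, without replicate 4. Sf3a2 passed the filter on low counts through the controls alone, so that it could only come out lower. Its p is therefore no support for a difference. The fitted fold change of a gene at 0 depends on the prior count and is not given.

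The counts of Sf3a2 are tied to those of Plekhj1, a gene on the opposite strand. Sf3a2 (chromosome 10 from 80798198 to 80804924, GRCm38, plus strand) shares exon sequence with Plekhj1 in the annotation. Plekhj1 held expected counts of 362.89, 145.55, 865.08 and 1758.09 in controls 1 to 4, and in each control its fraction and that of Sf3a2 added up to a whole number within 0.005 (416, 225, 917 and 1820). In the knockdown-labelled libraries Plekhj1 held 51, 178, 90 and 545 counts and Sf3a2 none. Both genes together were at 14.8 ± 5.57 CPM in the knockdown-labelled libraries and 20.8 ± 15.5 CPM in the controls, and the groups overlapped. How many of the reads listed under Sf3a2 come from Sf3a2 RNA was not tested.

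The other U2 genes were detected in all 8 libraries. Sf3b6, for the branch-site protein p14, had the highest level of the group, at 667, 823.5, 1171 and 1164 CPM in knockdown-labelled replicates 1 to 4, against 1207, 876, 978 and 965 CPM in controls 1 to 4. The groups overlapped (log2 fold change −0.07, SE 0.20). Sf3b1, the large scaffold that clasps the branch-site helix, was at 52.2, 119, 148 and 159 CPM in knockdown-labelled replicates 1 to 4, against 118.5, 92.5, 127 and 90.7 CPM in controls 1 to 4. Knockdown-labelled replicate 1 was the lowest of the 8 and replicates 3 and 4 the highest (0.16, SE 0.32). Without knockdown-labelled replicate 4 this fold change was −0.01 and without replicate 1 it was 0.40.

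Of the proteins specific to U2, Snrpa1 (U2-A') averaged 354 ± 84.0 CPM in the knockdown-labelled libraries and 335 ± 67.3 CPM in the controls. Snrpb2 (U2-B'') averaged 191 ± 66.04 CPM in the knockdown-labelled libraries and 219.8 ± 46.5 CPM in the controls. Of the SF3a and SF3b subunits, Sf3a3 averaged 63.6 ± 15.6 CPM in the knockdown-labelled libraries and 67.0 ± 14.3 CPM in the controls, and Sf3b5 averaged 178 ± 42.9 CPM in the knockdown-labelled libraries and 159 ± 44.9 CPM in the controls. None of these 4 differed by more than the larger of the SDs of its groups. Sf3a1, the largest SF3a subunit, averaged 17.9 ± 3.51 CPM in the knockdown-labelled libraries and 18.3 ± 7.83 CPM in the controls, and Sf3b2 averaged 19.5 ± 4.07 CPM in the knockdown-labelled libraries and 24.7 ± 7.06 CPM in the controls. Apart from Sf3a2, the lowest were Sf3b4, at 4.79 ± 2.32 CPM in the knockdown-labelled libraries and 5.99 ± 6.24 CPM in the controls, and Sf3b3, at 4.20 ± 2.34 CPM in the knockdown-labelled libraries and 4.76 ± 4.47 CPM in the controls. The 95% interval of the fold reached from 0.198 to 3.26 for Sf3b4 and from 0.156 to 4.99 for Sf3b3.

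**Figure D4:**
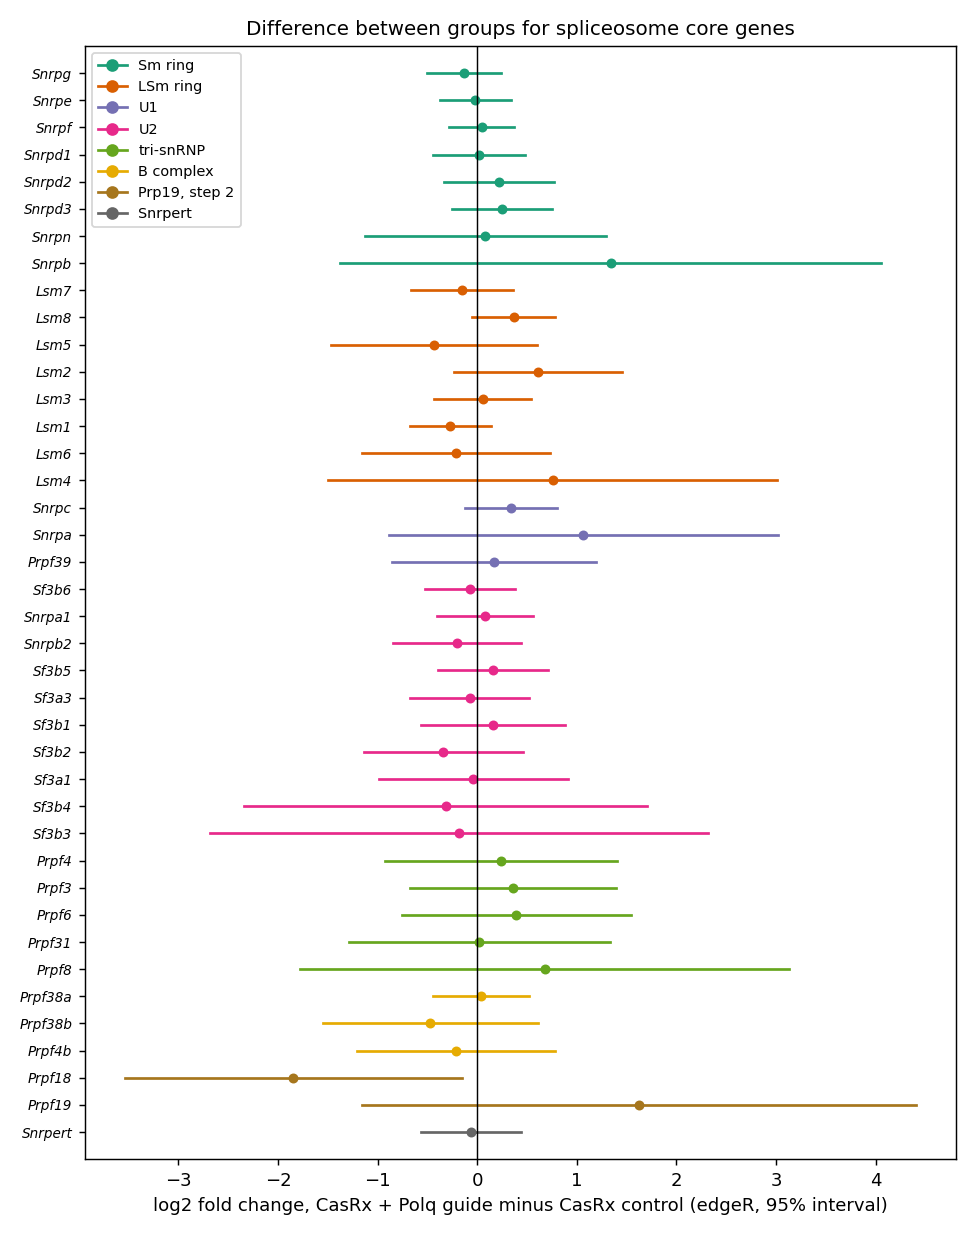
Log2 fold change (knockdown-labelled minus control) of the tested core genes with the 95% interval from edgeR, by role and level; Sf3a2, at 0 in one group, is left out. All intervals shown but that of Prpf18 include 0. The interval runs from −0.28 to 0.37 for the abundant Snrpf and from −1.38 to 4.06 for Snrpb.

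The 5 core genes of tri-snRNP proteins, chosen by symbol, all had positive log2 fold changes, from 0.02 to 0.68. Their median was 0.36 and none passed the test. Among the 15 tested genes in the list of other snRNP proteins, 8 were positive and 7 negative. Prpf31 turned negative without the filter on low counts and with thinned libraries. Prpf4 was at −0.0033 without knockdown-labelled replicate 4 and at −0.02 without control replicate 2. Without knockdown-labelled replicate 2 the log2 fold change was 0.0075 for Prpf6 and 0.09 for Prpf3. Prpf8, which holds the active site together, was at 17.6, 10.2, 11.7 and 11.9 CPM in knockdown-labelled replicates 1 to 4, against 14.6, 0.0315, 3.91 and 13.6 CPM in controls 1 to 4. Control replicate 2 held 1 count of Prpf8 and the other 7 libraries 84 to 585 counts (interval of the log2 fold change −1.78 to 3.13). Prpf3, a U4/U6 protein, was at 14.5, 35.0, 19.3 and 22.2 CPM in knockdown-labelled replicates 1 to 4, against 10.9, 9.83, 23.6 and 26.5 CPM in controls 1 to 4 (0.36, SE 0.46). Its partner Prpf4 was at 17.3, 22.2, 18.8 and 33.2 CPM in knockdown-labelled replicates 1 to 4, against 29.3, 7.34, 31.1 and 9.96 CPM in controls 1 to 4 (0.24, SE 0.52). For both genes the groups overlapped. Prpf6, which bridges U5 and U4/U6, averaged 14.9 ± 8.37 CPM in the knockdown-labelled libraries and 11.4 ± 1.94 CPM in the controls, and Prpf31, which binds the U4 RNA, 10.006 ± 2.58 CPM in the knockdown-labelled libraries and 9.86 ± 4.53 CPM in the controls.

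Of the 3 genes of factors that join at the next stage, 1 had a positive and 2 a negative log2 fold change, and Prpf38a had the highest level per kilobase. It was at 264, 362, 269 and 272 CPM in knockdown-labelled replicates 1 to 4, against 252, 202, 309.5 and 375 CPM in controls 1 to 4. The groups overlapped (log2 fold change 0.04, SE 0.22), and the direction turned without the filter on low counts. Its paralogue Prpf38b was at 31.3, 12.03, 19.9 and 37.2 CPM in knockdown-labelled replicates 1 to 4, against 33.2, 54.1, 38.2 and 13.6 CPM in controls 1 to 4 (−0.47, SE 0.48). Prpf4b, a kinase of splicing factors, averaged 33.1 ± 17.2 CPM in the knockdown-labelled libraries and 38.5 ± 8.94 CPM in the controls.

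Prpf18 and Prpf19 had fitted differences of opposite sign. Prpf18, a factor of the second catalytic step, was at 2.38, 1.94, 10.3 and 7.83 CPM in knockdown-labelled replicates 1 to 4, against 40.05, 5.29, 19.7 and 16.3 CPM in controls 1 to 4. Control replicate 2 lay between the knockdown-labelled libraries, so that the groups overlapped (log2 fold change −1.85, SE 0.76, edgeR unadjusted p = 0.0353). Prpf19, the ubiquitin ligase after which the Prp19 complex is named, was at 3.37, 4.01, 2.20 and 5.11 CPM in knockdown-labelled replicates 1 to 4, against 1.19, 2.14, 1.37 and 0.0465 CPM in controls 1 to 4. All 4 knockdown-labelled libraries were above all 4 controls, replicate 3 by a small margin over control replicate 2 (1.63, SE 1.25). Behind these levels were 17, 33, 19 and 163 Prpf19 counts in knockdown-labelled replicates 1 to 4 and 39, 68, 60 and 2 in controls 1 to 4.

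The spread between libraries followed the level. Among the 5 tested core genes at 500 CPM or more, the median SD was 15.5% of the mean in the knockdown-labelled libraries and 18.2% in the controls, beside 16.6% in the knockdown-labelled libraries and 18.6% in the controls for all 229 genes at that level. Among the 13 at 10 to 50 CPM it was 39.5% in the knockdown-labelled libraries and 48.5% in the controls, beside 43.0% in the knockdown-labelled libraries and 43.6% in the controls for all 3765 genes. Lsm1 was the steadiest core gene in the controls, with an SD of 6.85% of the mean, and Snrpf followed with 7.24%. Snrpb was the least steady tested core gene in the controls, with 145%, ahead of Sf3b4 with 104% and Snrpa with 101%. Of the 39 core genes whose mean reached 5 CPM, 2 (5.13%) had a library with 3 counts or fewer, Prpf8 and Snrpb, beside 12.6% of all 8098 genes with such a mean. These shares are not matched for level, since 35.7% of the tested core genes lay at 100 to 500 CPM, beside 8.17% of all genes tested. The median half-width of the 95% interval was 1.29-fold for the core genes at 500 CPM or more and 2.21-fold at 10 to 50 CPM.

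**Figure D5:**
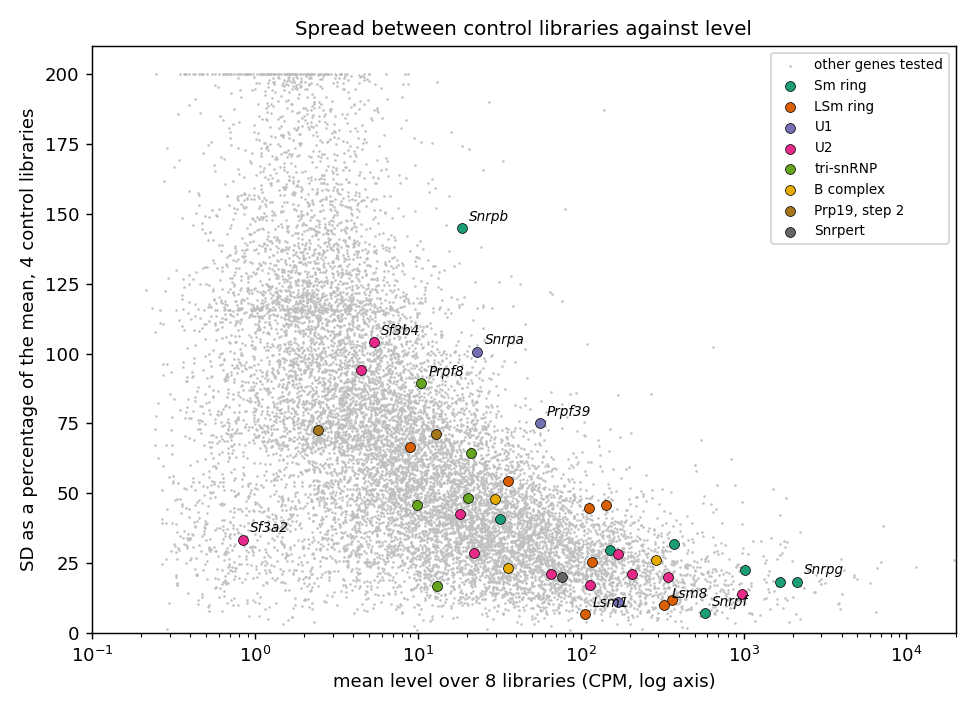
SD as a percentage of the mean over the 4 control libraries against the mean level over 8 libraries (CPM, log axis), for the core genes by role (coloured) and the other genes tested (grey). Snrpb, at 145%, stands above most genes of its level, while Lsm1 and Snrpf, at 6.85% and 7.24%, lie at the lower edge.

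Other genes of the splicing pathway were examined in 9 lists with 121 genes. Of these, 115 were tested, 67 had positive and 48 negative log2 fold changes with a median of 0.09, and the edgeR test called 0 at an adjusted p under 0.05, as did DESeq2. At an unadjusted p under 0.05 there were 6, namely 4 higher (Dhx8, Srsf7, Hnrnpa3 and Coil), beside 1.10% of all genes in that direction, and 2 lower (Sart3 and Luc7l3), beside 1.71%. The knockdown-labelled libraries lay wholly above the controls in 3, Dhx8, Hnrnpa3 and Srsf10, beside 1.44% of all genes, and wholly below in 0, beside 1.54%. Dhx8, the helicase that releases the spliced mRNA, was at 62.9, 63.8, 84.2 and 53.7 CPM in knockdown-labelled replicates 1 to 4, against 38.1, 45.6, 46.8 and 35.1 CPM in controls 1 to 4 (log2 fold change 0.68, SE 0.24). Hnrnpa3, a packaging protein of nuclear RNA, was at 49.97, 49.4, 51.4 and 50.9 CPM in knockdown-labelled replicates 1 to 4, against 45.7, 29.5, 24.8 and 26.9 CPM in controls 1 to 4 (0.67, SE 0.27). Control replicate 1 was close to the knockdown-labelled libraries for Hnrnpa3 and the other 3 controls were well below.

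Each of the 9 lists had at most 1 gene at an unadjusted p under 0.05. Srsf7, a splicing regulator of the SR family, was at 358, 520.5, 410.1 and 382 CPM in knockdown-labelled replicates 1 to 4 and at 388, 286, 259.6 and 161 CPM in controls 1 to 4 (0.61, SE 0.25). Coil, the scaffold of Cajal bodies, where snRNPs mature, was at 43.6, 77.9, 43.1 and 58.5 CPM in knockdown-labelled replicates 1 to 4, against 43.8, 11.1, 24.6 and 32.8 CPM in controls 1 to 4 (0.99, SE 0.42). Sart3, which helps U4 and U6 to pair again, was at 3.77, 2.55, 2.31 and 8.49 CPM in knockdown-labelled replicates 1 to 4, against 18.7, 16.98, 18.7 and 3.86 CPM in controls 1 to 4 (−1.75, SE 0.71). The groups overlapped in all 3. Luc7l3, a U1-associated protein, was at 41.6, 81.04, 50.04 and 70.7 CPM in knockdown-labelled replicates 1 to 4, against 88.6, 120.2, 93.6 and 70.7 CPM in controls 1 to 4 (−0.61, SE 0.27), with knockdown-labelled replicates 2 and 4 within the controls. The smallest p of the minor spliceosome proteins belonged to Snrnp25 (0.51, SE 0.31), of the other LSm proteins to Lsm12 (0.53, SE 0.28) and of the exon junction complex to Magohb (−0.79, SE 0.38).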

How the data were processed

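RNA from 8 pools of mouse 2-cell embryos was sequenced (4 CasRX with a Polq gRNA, 4 CasRX with no guide named). Per the labels' protocols, TRIzol was used for isolation and the NEBNext Ultra RNA kit for the libraries. The deposited values are the authors' expected counts per gene, not normalised. The submitters' processing notes name Trim Galore 0.6.10, STAR 2.7.3a, RSEM 1.2.28 and the build GRCm38 (mm10). Neither the annotation release nor the strand setting is given in the sources used here. Reads of genes on opposite strands that share sequence can therefore not be separated.

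The expected counts were first rounded, which changed 4.22% of them. Genes passing edgeR's filterByExpr (minimum count 10, minimum total 15), 13146 in all, were tested with edgeR 4.0.16 under R 4.3.3 (TMM, robust quasi-likelihood test, a term for the group alone), with Benjamini-Hochberg adjustment across every tested gene. The method was tested on simulated data, with changes placed in genes at 10 CPM or more. At the measured spread it called 6 of 100 simulated 2-fold changes and 63 of 100 simulated 4-fold changes. Of its 75 calls, 6 were false. The common biological coefficient of variation was 0.987. The floor of 3 counts covers counting error only. Lengths, overlaps and copies come from GENCODE M21 (GRCm38).

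Alternatives were DESeq2 size factors, library totals alone, no filter, DESeq2 1.42.0 (144 genes without an adjusted p stayed out), limma-voom (limma 3.58.1), a block for the replicate number, libraries thinned to the smallest total, and leaving out each library. The genes and lists were chosen with earlier results of these data known. Values per library are given, in each role, for the gene with the smallest p and that with the highest level per kilobase of exon, for genes whose groups do not overlap, and for Snrpb, Snrpn, Lsm1, Lsm8, Sf3b1, Prpf8 and Prpf19, and in each pathway list the gene with the smallest p is named. Snrpa was added after its values were seen. The values of 1 core gene are not reported here, though it counts in the totals. Of the list genes, 1 was not found under its symbol.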

Additional observations from a re-analysis of the deposited data

Results flagged for a closer look

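In 6 of the 85 sets of 4 libraries examined, 1 library lay far from the other 3, by Dixon's criterion for the gap to the nearest library. Chance gives about 5% of sets. Prpf38a was at 362 CPM in knockdown-labelled replicate 2 and at 264 to 272 CPM in the other 3 of that group. Snrpd2 was at 291 CPM in knockdown-labelled replicate 1 and at 437 to 443 CPM in the other 3. Snrpa was at 14.6 CPM in knockdown-labelled replicate 3 and at 35.6 to 37.7 CPM in the other 3. Among the controls, Snrpg was at 2845 CPM in replicate 2 and at 1991 to 2058 CPM in the other 3, Sf3b4 was at 15.3 CPM in replicate 1 and at 1.92 to 3.54 CPM in the other 3, and Prpf31 was at 3.09 CPM in replicate 3 and at 11.6 to 12.4 CPM in the other 3. The total of 33650050 counts of knockdown-labelled replicate 4 also stood apart from the other 3 libraries of its group.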

How the results depend on the processing

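No core gene was called under any alternative, and no gene over all genes except with DESeq2, which called 20, none of them a core gene. With 1 library left out, the number of genes called over all genes and of core genes called ran from 0 to 0, the number of core genes at an unadjusted p under 0.05 from 1 to 3, and their median log2 fold change from −0.035 to 0.11. Without the filter on low counts that median was −0.0063. With knockdown-labelled replicate 4 alone against the 4 controls, a setting chosen after seeing the data that assumes the single library to vary like the controls, 0 core genes were at an unadjusted p under 0.05, 29 had positive log2 fold changes, and their median was 0.21, beside −0.36 for all genes. The log2 fold change of Polq ran from −0.47 to −0.11 with 1 library left out.

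Of 41 core genes, 18 kept their direction under the 7 alternatives of scaling, filter, tool, block and depth and with each of the 8 libraries left out. These 18 include Sf3a2, which passed the filter through the controls alone and could only come out lower. They also include Lsm1, at −0.0033 with thinned libraries. Only 41 of the 42 tested core genes passed the filter with thinned libraries. The direction turned in 10 under those 7 alternatives; the cause was not tested. With thinned libraries the log2 fold change was −0.19 for Prpf31, 0.070 for Sf3a1, 0.42 for Sf3b3, 0.032 for Snrpe and −0.042 for Snrpn. With limma-voom it was 0.046 for Lsm6, 0.073 for Sf3a1, 0.43 for Sf3b4, 0.057 for Snrpe and 0.032 for Snrpert. Without the filter it was −0.015 for Prpf31, −0.0063 for Prpf38a and −0.018 for Snrpd1, and with library totals alone 0.010 for Sf3a1 and 0.011 for Snrpe. With the replicate block it was 0.055 for Sf3a1, 0.35 for Sf3b3, 0.062 for Sf3b4 and −0.13 for Snrpn.

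The replicate number did not pair the libraries: deviations from the group means of same-numbered libraries correlated at −0.075, 0.0049, −0.0081 and 0.0085, and with the replicate block 0 genes were called and the median of the core genes was 0.06. In 23 core genes the direction turned with 1 library left out, with ranges for Lsm3 (−0.068 to 0.23), Lsm6 (−0.49 to 0.012), Lsm7 (−0.38 to 0.0075), Prpf31 (−0.28 to 0.18), Prpf38a (−0.095 to 0.20), Prpf39 (−0.048 to 0.83), Prpf4 (−0.024 to 0.56), Prpf4b (−0.52 to 0.091), Sf3a1 (−0.26 to 0.18), Sf3a3 (−0.17 to 0.10), Sf3b1 (−0.013 to 0.40), Sf3b3 (−0.57 to 0.59), Sf3b4 (−0.68 to 0.74), Sf3b5 (−0.011 to 0.37), Sf3b6 (−0.19 to 0.064), Snrpa1 (−0.064 to 0.20), Snrpb2 (−0.36 to 0.020), Snrpd1 (−0.12 to 0.12), Snrpe (−0.11 to 0.11), Snrpert (−0.17 to 0.078), Snrpf (−0.037 to 0.12), Snrpg (−0.23 to 0.01) and Snrpn (−0.48 to 0.40). At 10 to 50 CPM the 95% interval of a core gene reached a median of 2.21-fold either way.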
